A study of Mus musculus with 12 samples.

Results

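The renin-angiotensin genes described here are 7 genes of the system that makes, cuts and senses angiotensin, Agt, Ace, Enpep, Lnpep, Agtr1a, Agtr2 and Atp6ap2. They were taken by gene symbol from the deposited tables, where each had reads in every library, and they are 7 of 28995 genes with a read in any library. RNA came from primary fibroblasts of hindlimb skeletal muscle of 3-day-old wild-type C57BL/10 mice, kept for 24 hours in charcoal-stripped serum and then treated for 48 hours. There were 12 libraries, 4 from fibroblasts with 1 µM aldosterone, the agonist of the mineralocorticoid receptor, 4 with 1 µM spironolactone, its antagonist, and 4 with the DMSO vehicle. All fibroblasts came from 2 mice with 2 replicate plates for each mouse and treatment, so p-values over 4 libraries of a group measure in part the spread between plates of a mouse. Each library carries a sample number and a biological replicate number, but nothing in the labels ties either number to a mouse.

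Angiotensinogen, the product of Agt, is a secreted protein from which renin cuts the decapeptide angiotensin I. Angiotensin-converting enzyme, the product of Ace, turns angiotensin I into angiotensin II, and aminopeptidases on the cell surface shorten angiotensin II further. Angiotensin II acts through a type 1 receptor, which raises vascular tone, drives release of aldosterone from the adrenal cortex and promotes fibrosis, and through a type 2 receptor, which opposes many of these effects and is abundant in fetal and newborn tissue. Aldosterone is thus a downstream hormone of this system, and the comparison asks how its genes stand in fibroblasts exposed to that hormone or to the antagonist of its receptor.

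Aldosterone raised RNA of the substrate and of the converting enzyme and lowered RNA of the type 1a receptor. Ace was 10.1-fold and Agt 3.06-fold higher than with vehicle, Lnpep was 1.20-fold higher, and Agtr1a stood at 0.624 of its vehicle level. With Benjamini-Hochberg adjusted p-values from limma of at most 0.05, 3 of the 7 genes were higher (Ace, Agt and Lnpep), beside 5.68% of all 27319 genes tested, and 1 was lower (Agtr1a), beside 4.74% of all genes. When a log2 change of 1 or more was asked for as well, 2 were higher (Ace and Agt), beside 1.4% of all genes, and 0 were lower, beside 0.666%. These shares are over all genes, also those with few reads. Among 15245 genes with a mean of 10 or more, limma called larger shares at an adjusted p of at most 0.05, 1620 higher and 1413 lower. Enpep, Agtr2 and Atp6ap2 did not pass the test. Blocking on the sample number raised the calls over all genes from 1553 to 2371 higher and from 1294 to 2192 lower.

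The stretches just upstream of the 3 genes that were higher with aldosterone are shown because their RNA moved in the same direction. They are the 250 bases before the annotated start in RefSeq on build GRCm38.p6, 5′ to 3′ on the strand of the gene, and 6 of the 7 genes had such an entry. Capitals mark the TATA sequence TATAA on the strand of the gene and the GC box GGGCGG on either strand (CCGCCC on the other).
Agt, minus strand, chr8:124569707-124569956: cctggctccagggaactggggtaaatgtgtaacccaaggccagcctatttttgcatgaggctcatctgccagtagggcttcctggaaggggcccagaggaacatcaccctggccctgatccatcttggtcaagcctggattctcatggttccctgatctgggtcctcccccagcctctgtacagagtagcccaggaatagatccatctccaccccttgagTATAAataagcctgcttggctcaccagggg
Ace, plus strand, chr11:105967698-105967947: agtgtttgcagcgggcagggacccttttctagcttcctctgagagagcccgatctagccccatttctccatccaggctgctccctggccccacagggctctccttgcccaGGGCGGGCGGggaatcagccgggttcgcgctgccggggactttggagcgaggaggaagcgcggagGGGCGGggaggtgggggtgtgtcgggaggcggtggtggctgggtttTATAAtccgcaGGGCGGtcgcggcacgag
Lnpep, minus strand, chr17:17624490-17624739: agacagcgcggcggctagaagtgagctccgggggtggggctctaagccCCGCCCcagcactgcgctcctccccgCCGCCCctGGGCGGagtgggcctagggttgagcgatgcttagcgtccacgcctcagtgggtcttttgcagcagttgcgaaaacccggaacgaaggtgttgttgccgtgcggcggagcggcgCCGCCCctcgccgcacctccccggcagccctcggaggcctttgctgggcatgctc

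Agt held TATAA 30 bases before its start and no GC box. Ace held TATAA 29 bases before the start and 4 GC boxes, at 140, 136, 75 and 18 bases before it, the first pair of which overlap. Lnpep held no TATAA and 4 GC boxes, 3 of them on the other strand. Among 32851 listed promoters of the same length, 16.0% held TATAA and 32.7% a GC box. The 6 letters TGTTCT or AGAACA, which steroid receptors of the mineralocorticoid and glucocorticoid type recognise as part of a longer element, were in none of these 3 stretches and in 16.1% of all listed promoters. Most listed promoters thus lack these letters too, and bases outside the 250 were not searched. Among the other members with an entry, Atp6ap2 held TGTTCT 131 bases before its start and Agtr2 held TATAA 26 bases before its own. A second start listed for Ace, further downstream, held none of these letters. Base composition ran from 38.4% GC upstream of Agtr2 to 70% upstream of Lnpep, with a median of 52.4% over all listed promoters.

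The treatment was seen in genes that steroid receptors are known to induce. Fkbp5, a cochaperone of these receptors, rose by 4.26 on the log2 scale with aldosterone against vehicle, Tsc22d3 rose by 2.69 and the clock gene Per1 by 1.83, in limma's fit on log2(normalized count + 1). The mineralocorticoid receptor gene Nr3c2 had a level of 4.14 normalized counts per kb over all libraries and the glucocorticoid receptor gene Nr3c1 had 343, and which receptor carried a response was not tested. Nr3c1 was lower with aldosterone by a log2 fold change of -0.41 (adjusted p = 6.5e-05, limma). Nr3c2, with means of 37.9 normalized counts with vehicle and 14.7 with aldosterone, did not pass (log2 fold change -1.21, adjusted p = 0.085, limma). Reads on genes ran from 19136923 to 30219185 per library, with a median of 23833379. The fibroblast markers Pdgfra, Col1a1, Col1a2, Col3a1, Dcn, Lum, Thy1 and Pdgfrb were expressed in every treatment, the lowest mean of a group being 866 normalized counts for Lum with aldosterone. Of these 8 markers Pdgfra was higher with aldosterone than with vehicle by 0.91 and Col3a1 lower, with -0.43, and the others did not pass the test. Of 7 smooth muscle and pericyte markers and of the 5 muscle markers tested 0 passed in limma, and of 4 Schwann cell markers S100b was higher by 0.50, while 5 of 7 macrophage markers and 4 of 5 mast cell markers had at most 3 reads in every library. Summed smooth muscle and pericyte markers, mostly Acta2, held 64329 to 90358 normalized counts with vehicle, 49597 to 74343 with aldosterone and 67176 to 93748 with spironolactone. Their median log2 fold change against vehicle was -0.30. The part of such cells in the results of the members was not tested.

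Levels can be set side by side between genes only per length, so normalized counts were divided by the kilobases of each gene as deposited. Which transcripts of a gene these cells hold was not tested, and the order of genes depends on the deposited lengths. In vehicle-treated fibroblasts Atp6ap2 had the highest level, 800.0 ± 55.2 normalized counts per kb (SD, n = 4), and Lnpep followed with 318 ± 15.2. Agtr2 stood at 134 ± 65.5 and Agtr1a at 130 ± 10.2, and the libraries of these receptors overlapped, so their order was not resolved. Agt stood at 49.2 ± 16.8, Enpep at 19.4 ± 5.35 and Ace at 13.9 ± 1.45. Enpep and Ace also overlapped, whereas every other pair of neighbours in this order was apart in all libraries. With aldosterone the Ace level was 140 ± 24.6 normalized counts per kb and that of Agt 151 ± 38.9, both above the 80.9 ± 4.07 of Agtr1a.

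**Figure D1:**
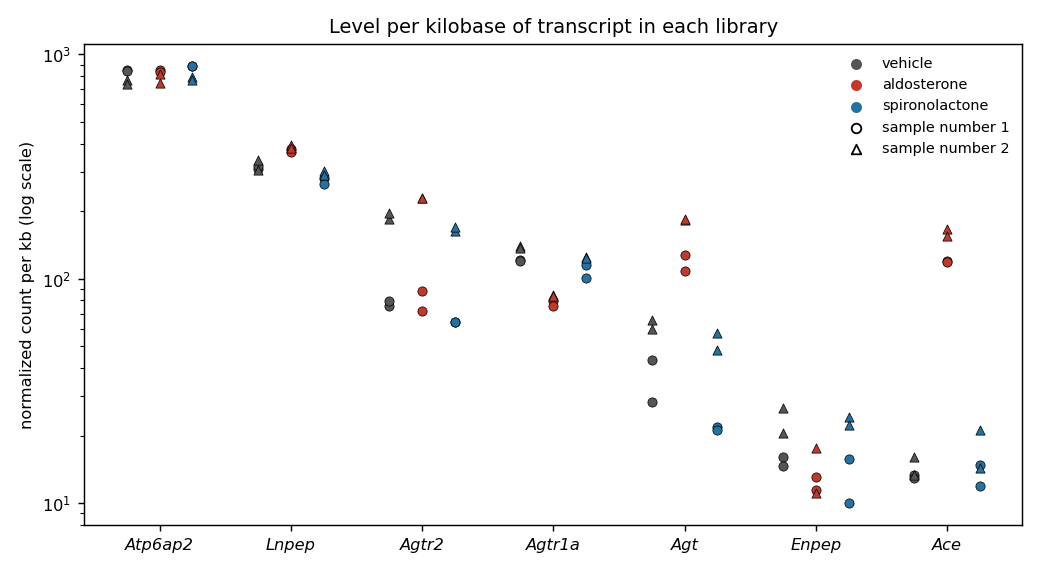
Level of each gene in each library as normalized counts per kilobase of deposited gene length on a log axis, with colour for the treatment and marker shape for the sample number. Ace has the lowest mean of the 7 genes in vehicle, 13.9, with libraries that overlap those of Enpep, and a mean of 140 with aldosterone.

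The substrate, Agt, lies on chromosome 8 from 125283273 to 125296445 on the minus strand of mm39 (ENSMUSG00000031980). Its normalized counts with vehicle were 82.3 and 53.3 in sample number 1 and 123 and 113 in sample number 2. With aldosterone they were 204 and 241 in sample number 1 and 346 and 349 in sample number 2. With spironolactone they were 41.1 and 39.9 in sample number 1 and 91.4 and 108 in sample number 2. All 4 aldosterone libraries lay above every library of the other treatments, and within each treatment both libraries of sample number 2 lay above those of sample number 1.

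Against vehicle the log2 fold change of Agt was 1.64 (SE 0.229, 95% interval 1.15 to 2.12, adjusted p = 1.2e-04, limma). Against spironolactone it was 2.11 (SE 0.275, adjusted p = 4.3e-05, limma), where the ratio of means was 4.06. A two-sided exact permutation test of the 4 against 4 libraries gave p = 0.0286 for both, the smallest value it can give. Within sample number 1 alone the aldosterone and vehicle libraries differed by 1.73 and within sample number 2 by 1.55 on the log2 scale.

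In bulk RNA a change in the share of a cell type and a change of RNA per cell cannot be told apart. Fat cells are a known source of angiotensinogen, and 2 of 6 adipocyte markers were higher with aldosterone than with vehicle and none lower. These were Fabp4, a fatty acid binding protein, by 2.45 and the lipid droplet protein Plin1 by 1.78 on the log2 scale. Summed over the 6 markers, normalized counts were 402 to 505 with vehicle, 1235 to 1467 with aldosterone and 398 to 532 with spironolactone. Most of the rise in the sum was Fabp4, with means of 153 with vehicle and 837 with aldosterone. Pparg had means of 237 and 316 and Plin1 of 30.6 and 98.9. Cidec, with a log2 fold change of 2.03 (adjusted p = 0.067, limma), Pparg, with 0.44 (adjusted p = 0.070, limma), and Adipoq, with 0.42 (adjusted p = 0.66, limma), did not pass against vehicle, and Lep had at most 3 reads in every library. Against spironolactone 4 of the 6 were higher, Fabp4 by 2.33, Plin1 by 1.47, Cidec by 2.98 and Pparg by 0.54 on the log2 scale. The part of such cells in the Agt result was not tested.

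Ace, on chromosome 11 from 105858771 to 105880790 on the plus strand (ENSMUSG00000020681), encodes the peptidase that forms angiotensin II and also breaks down bradykinin. Vehicle libraries held 70.4 and 68.1 normalized counts in sample number 1 and 70.3 and 84.8 in sample number 2. Aldosterone libraries held 632 and 625 in sample number 1 and 882 and 817 in sample number 2. Spironolactone libraries held 78.0 and 63.1 in sample number 1 and 75.5 and 111 in sample number 2. The lowest aldosterone library was thus several times above the highest library of either other treatment, and vehicle and spironolactone overlapped.

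The log2 fold change of Ace was 3.30 against vehicle (SE 0.125, 95% interval 3.04 to 3.57, adjusted p = 3.2e-11, limma). Against spironolactone it was 3.17 (SE 0.153, adjusted p = 2.1e-10, limma), with a ratio of means of 9.01. The exact permutation test gave the smallest p it can give, 0.0286, in both comparisons. The difference from vehicle was 3.16 within sample number 1 and 3.44 within sample number 2. Endothelial cells are a known site of the enzyme, and of 7 endothelial markers 1 was higher with aldosterone than with vehicle, the growth factor receptor gene Kdr, by 1.88 on the log2 scale. Summed normalized counts of these markers were 490 to 548 with vehicle, 704 to 777 with aldosterone and 476 to 526 with spironolactone, and most of each sum was Tek, with means of 449 with vehicle and 529 with aldosterone. Kdr, with means of 45.7 with vehicle and 170 with aldosterone, added more than Tek to the rise of the sum. Of the low markers, Cdh5 had means of 9.61 with vehicle and 15.4 with aldosterone, Vwf 9.70 and 13.5, Emcn 2.73 and 4.56 and Pecam1 6.64 and 2.89, while Tie1 had at most 3 reads in every library. Against spironolactone 2 of the 7 were higher, Kdr by 1.67 and Tek by 0.28 on the log2 scale. The part of endothelial cells in the Ace result was not tested. A long noncoding gene on the other strand, Gm11651, overlaps Ace and had a mean of 0.165 normalized counts.

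**Figure D2:**
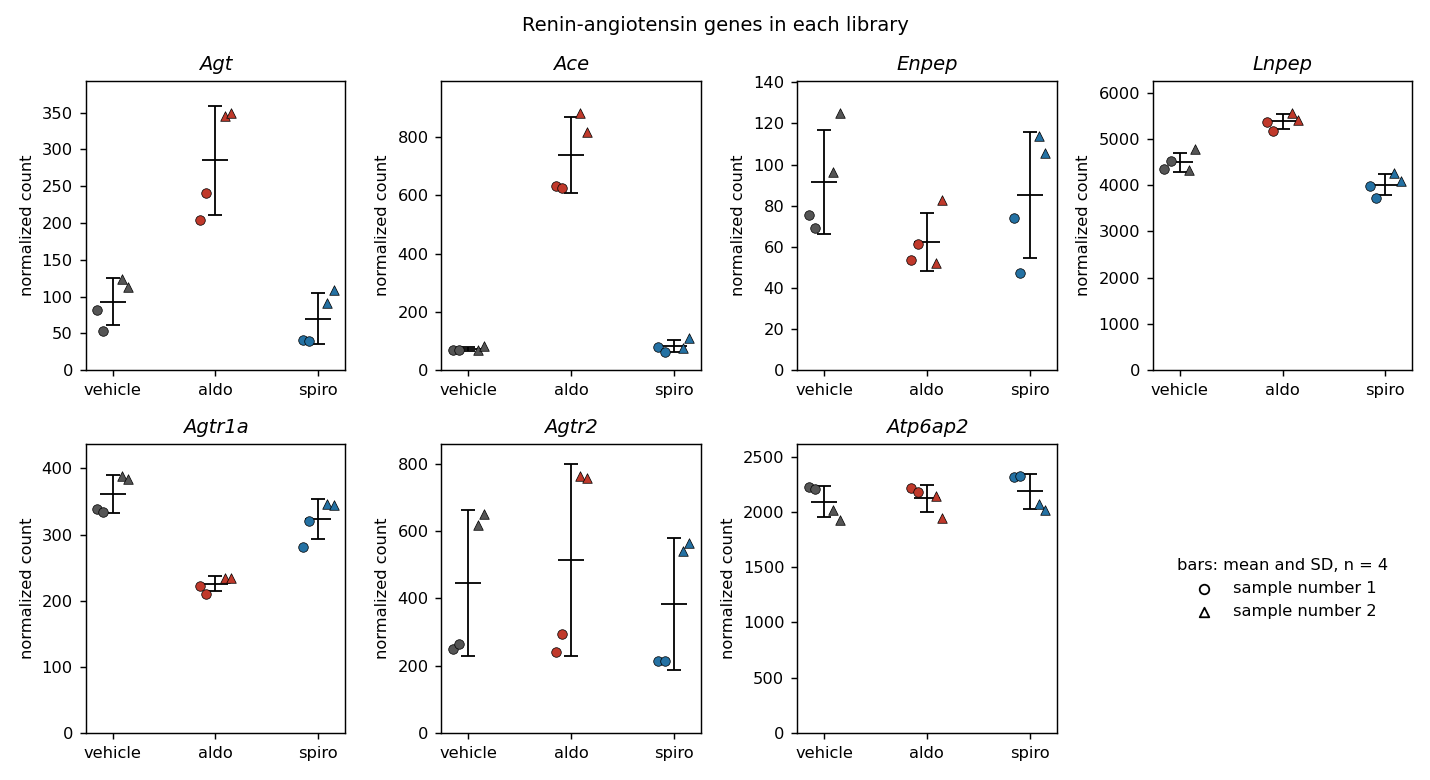
Normalized counts of each of the 7 genes in each library by treatment (aldo, aldosterone; spiro, spironolactone), with bars for the mean and SD of 4 libraries and marker shape for the sample number. The 4 aldosterone libraries stand apart upwards in Ace, Agt and Lnpep and downwards in Agtr1a, and the sample numbers stand apart in Agtr2.

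Of the aminopeptidases, Lnpep changed little in fold but tightly. It lies on chromosome 17 from 17741672 to 17845312 on the minus strand (ENSMUSG00000023845) and encodes a membrane aminopeptidase that binds angiotensin IV, cleaves oxytocin and vasopressin and travels with the insulin-responsive glucose transporter. Vehicle libraries held 4347 and 4515 normalized counts in sample number 1 and 4318 and 4786 in sample number 2. With aldosterone there were 5375 and 5179 in sample number 1 and 5557 and 5412 in sample number 2. Spironolactone libraries held 3989 and 3727 in sample number 1 and 4259 and 4083 in sample number 2. The 3 treatments did not overlap in Lnpep, with aldosterone highest and spironolactone lowest.

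Lnpep was higher with aldosterone by a log2 fold change of 0.26 against vehicle (SE 0.0528, adjusted p = 0.0034, limma) and 0.42 against spironolactone (SE 0.0551, adjusted p = 4.2e-05, limma). Both exact permutation tests gave 0.0286. Spironolactone against vehicle gave -0.16 (SE 0.0557, adjusted p = 0.93, limma), although no library overlapped (exact permutation p = 0.0286). A gene without overlap in this direction was 1 of 7 here and 1.27% of all 27598 genes.

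Enpep, on chromosome 3 from 129062824 to 129126369 on the minus strand (ENSMUSG00000028024), encodes aminopeptidase A, which removes the first residue of angiotensin II. Its vehicle libraries held 75.5 and 69.1 normalized counts in sample number 1 and 96.3 and 125 in sample number 2. Aldosterone libraries held 53.7 and 61.5 in sample number 1 and 52.2 and 82.5 in sample number 2. Spironolactone libraries held 73.8 and 47.1 in sample number 1 and 114 and 105 in sample number 2. Aldosterone libraries overlapped both other treatments, and within each sample number each aldosterone library lay below both vehicle libraries. Its log2 fold change against vehicle was -0.53 (SE 0.211, 95% interval -0.98 to -0.08, adjusted p = 0.15, limma; exact permutation p = 0.0857). A block on the sample number gave an adjusted p of 0.041 (limma), so the block changed this call and 2 members were then lower. Against spironolactone the log2 fold change was -0.38 (adjusted p = 0.47, limma).

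Agtr1a, on chromosome 13 from 30520424 to 30566850 on the plus strand (ENSMUSG00000049115), encodes the main type 1 receptor of angiotensin II in the mouse. Vehicle libraries held 339 and 335 normalized counts in sample number 1 and 389 and 384 in sample number 2. Aldosterone libraries held 222 and 211 in sample number 1 and 235 and 234 in sample number 2. Spironolactone libraries held 282 and 320.2 in sample number 1 and 347 and 344 in sample number 2. All aldosterone libraries lay below all others, and vehicle and spironolactone overlapped.

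The log2 fold change of Agtr1a was -0.68 against vehicle (SE 0.0897, 95% interval -0.87 to -0.49, adjusted p = 7.1e-05, limma). It was -0.51 against spironolactone (SE 0.0941, adjusted p = 0.0013, limma), and the exact permutation test gave 0.0286 for both. The difference from vehicle was -0.64 within sample number 1 and -0.72 within sample number 2. Its close copy Agtr1b, with means of 13.3 normalized counts with vehicle and 7.52 with aldosterone, did not pass the test (log2 fold change -0.78, adjusted p = 0.36, limma), and how reads common to both were counted is not given in the sources used here.

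Agtr2, on chromosome X from 21350783 to 21355403 on the plus strand (ENSMUSG00000068122), encodes the type 2 receptor. Vehicle libraries held 250.2 and 265 normalized counts in sample number 1 and 617 and 651 in sample number 2. Aldosterone libraries held 239 and 294 in sample number 1 and 764 and 759 in sample number 2. Spironolactone libraries held 213 and 213 in sample number 1 and 541 and 565 in sample number 2. Every library of sample number 2 lay above every library of sample number 1 whatever the treatment, and the treatments overlapped.

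The log2 fold change of Agtr2 was 0.15 against vehicle (SE 0.365, 95% interval -0.62 to 0.93, adjusted p = 0.87, limma) and 0.39 against spironolactone (SE 0.363, 95% interval -0.38 to 1.15, adjusted p = 0.66, limma). Leaving out a library moved the latter between 0.13 and 0.69, and it did not pass in any of these fits. Under a block on the sample number the difference from spironolactone passed the test (adjusted p = 2.6e-04, limma), and that from vehicle did not (adjusted p = 0.21, limma). Within sample number 2 the aldosterone libraries were higher than the spironolactone libraries by 0.46 (adjusted p = 0.0026, limma) and within sample number 1 by 0.31 on the log2 scale (adjusted p = 0.26, limma). Each of these fits set 2 libraries against 2. If a sample number is a single mouse, their p-values measure only the spread between its plates.

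**Figure D3:**
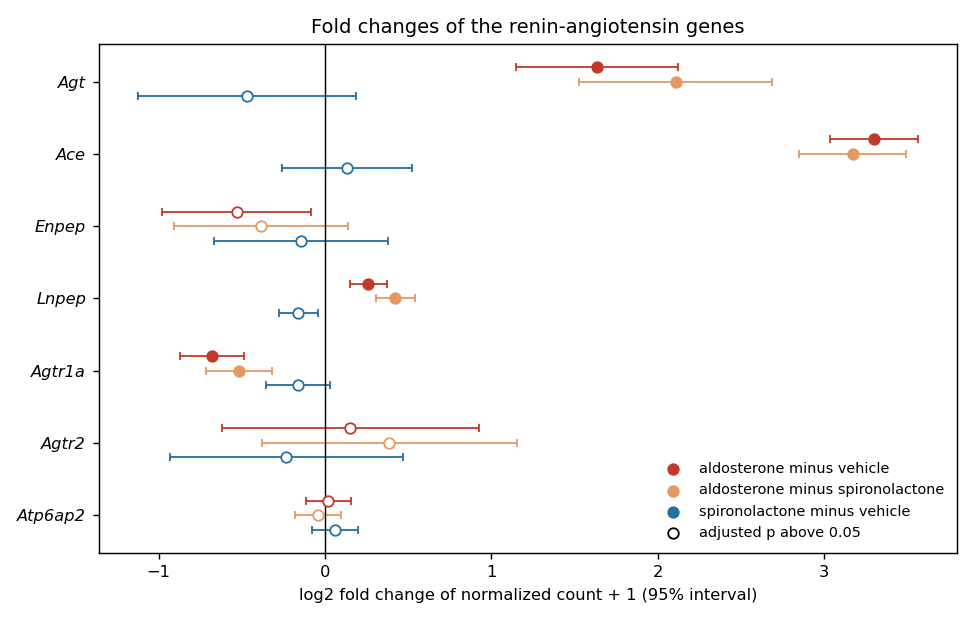
Log2 fold change of each gene in the 3 comparisons with its 95% interval from limma; filled points have an adjusted p of at most 0.05. Ace and Agt lie right of 1 and Agtr1a left of 0 in both comparisons with aldosterone, and no point for spironolactone against vehicle is filled.

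Per kilobase of deposited gene length, the receptors changed places between the sample numbers. In vehicle libraries of sample number 1 the level of Agtr1a was 1.51 and 1.62 times that of Agtr2, and in sample number 2 it was 0.704 and 0.752 times. With spironolactone the ratio was 1.58 and 1.79 in sample number 1 and 0.727 and 0.765 in sample number 2. With aldosterone it was 0.857 and 1.11 in sample number 1 and 0.367 and 0.368 in sample number 2. Within each sample number the aldosterone ratio lay below that of both other treatments in all libraries, and as Agtr1a was itself lower with aldosterone this ratio is a description and was given no test.

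**Figure D4:**
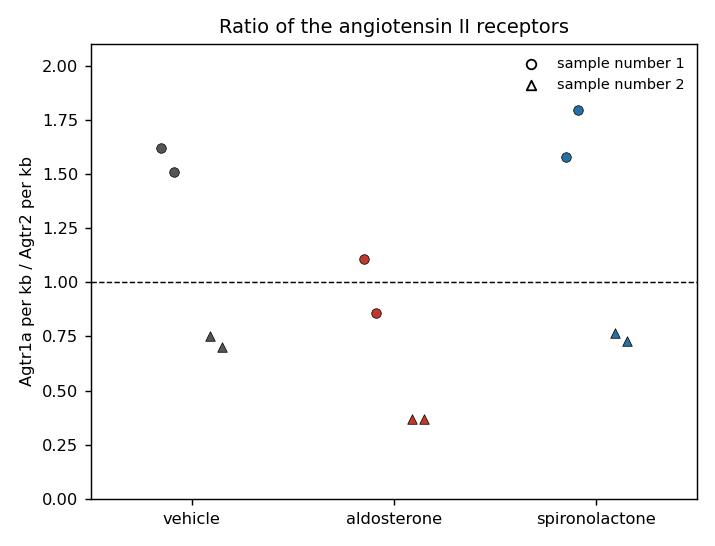
Ratio of Agtr1a to Agtr2, each as normalized counts per kilobase, in each of the 12 libraries by treatment, with marker shape for the sample number and a dashed line at equal levels. Sample number 1 lies above the line with vehicle and spironolactone and near it with aldosterone (0.857 and 1.11), and sample number 2 lies below it throughout.

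Atp6ap2, on chromosome X from 12454040 to 12483288 on the plus strand (ENSMUSG00000031007), encodes the prorenin receptor, which binds renin and its precursor and is also an accessory protein of the vacuolar ATPase. Vehicle libraries held 2224 and 2207 normalized counts in sample number 1 and 2020.1 and 1928 in sample number 2. Aldosterone libraries held 2221 and 2182 in sample number 1 and 2143 and 1947 in sample number 2. Spironolactone libraries held 2320.4 and 2327 in sample number 1 and 2073 and 2021 in sample number 2. The treatments overlapped, and both libraries of sample number 1 lay above those of sample number 2 in each treatment. The log2 fold change was 0.02 against vehicle (95% interval -0.12 to 0.15, adjusted p = 0.91, limma) and -0.04 against spironolactone (95% interval -0.18 to 0.10, adjusted p = 0.80, limma).

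The comparison of aldosterone with spironolactone shares its aldosterone libraries with that against vehicle. It called the same 3 genes higher (Ace, Agt and Lnpep), beside 4.93% of all 27631 genes, and Agtr1a lower, beside 3.96%. Under the added demand for a log2 change of 1 or more there were 2 higher (Ace and Agt), beside 1.38% of all genes, and 0 lower, beside 0.521%. Among 15300 genes with a mean of 10 or more, limma called 1400 higher and 1171 lower at an adjusted p of at most 0.05. The block on the sample number raised the calls over all genes here from 1361 to 2095 higher and from 1093 to 1879 lower. Libraries did not overlap in 3 members higher and 1 lower in each of these comparisons. Beside them stood 7.6% of all genes higher and 6.85% lower against vehicle, and 6.77% higher and 6.21% lower against spironolactone. The median log2 fold change of the 7 members was 0.15 against vehicle and 0.39 against spironolactone, where the medians of all genes tested were -0.01 in both.

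Between spironolactone and vehicle limma called 0 members and 0% of 27598 genes. At an unadjusted p under 0.05 there were 1251 genes, 1 member among them (Lnpep). Over all genes edgeR also called 0, and DESeq2 called 12 higher and 1 lower, with no member among them. DESeq2 gave no adjusted p here for Ace, Agt and Enpep, so it could not call these. Blocking on the sample number gave 63 genes higher and 34 lower, again without a member. The intervals of the log2 difference reached from -1.12 to 0.19 for Agt, from -0.26 to 0.52 for Ace and from -0.35 to 0.03 for Agtr1a. Of the 7 members, the interval of Lnpep, -0.28 to -0.04, did not include 0.

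Because Agtr2 stood apart by sample number, sample number 2 was compared with sample number 1 over all 12 libraries with treatment as a term, a comparison chosen after these values were seen, so that for Agtr2 it describes what was noticed. If a sample number stands for a single mouse or culture, it has no replicate here. The p-values of this comparison then measure only the spread between its plates. Agtr2 was higher in sample number 2 by 1.40 on the log2 scale (SE 0.0599, adjusted p = 1.4e-15, limma), or 2.64-fold in the means. Agt was higher by 0.92 (SE 0.121, adjusted p = 3.1e-06, limma), Enpep by 0.56 (adjusted p = 0.016, limma) and Ace by 0.32 (adjusted p = 0.030, limma). Atp6ap2 was lower, with a log2 fold change of -0.15 (SE 0.0351, adjusted p = 0.0036, limma). Agtr1a, with 0.17 (adjusted p = 0.073, limma), and Lnpep, with 0.07 (adjusted p = 0.25, limma), did not pass. Agtr1a passed with edgeR (adjusted p = 0.043) and with limma on genes whose mean was 10 or more (adjusted p = 0.046), which made 5 members higher.

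Thus 4 members were higher in sample number 2, beside 5.07% of all 28995 genes, and 1 was lower, beside 5.79%. Among 15276 genes with a mean of 10 or more, limma called larger shares, 1628 higher and 1914 lower. Libraries of the sample numbers did not overlap in Agtr2, beside 1.49% of all genes higher without overlap, and in Atp6ap2, beside 1.84% lower. The calls of Ace and Enpep in this comparison were lost when single libraries were left out, with adjusted p up to 0.12 and 0.060 (limma). For Ace this was so without any of the 4 aldosterone libraries, the second vehicle library of sample number 2, or the second spironolactone library of either sample number. For Enpep it was so without the second vehicle library or the first spironolactone library of sample number 2, or the second spironolactone library of sample number 1. Whether the sample number stands for a mouse, a culture or a preparation is not given in the labels and cannot be told apart.

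The response to aldosterone itself was set against the sample number with an interaction term. It passed the test in 0 of 7 members and in 0.0146% of all genes (limma), with the lowest adjusted p of a member at 0.89 and 0 members at an unadjusted p under 0.05, and edgeR called 0 members too. The interaction of Ace was 0.28 (95% interval -0.10 to 0.66), that of Agt -0.18 (95% interval -0.75 to 0.40) and that of Agtr2 0.22 (95% interval -0.10 to 0.54) on the log2 scale, so these intervals leave room for responses that differ between sample numbers.

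Of 18 other genes of the system, 14 were in the table of aldosterone and vehicle, and 2 were higher, 2 lower and 10 did not pass the test, with a median log2 fold change of -0.06. In this comparison 5.68% of all genes tested were higher and 4.74% lower. The renin gene Ren1 and the protease gene Ctsg were in none of the tables, so were taken as without reads. Ren2, a second renin gene that only some mouse strains carry, was also in none of them, which says nothing of its reads. Agtrap, whose product promotes internalization of the type 1 receptor, was higher by 0.39 (adjusted p = 7.9e-04, limma), and Prcp, a carboxypeptidase that acts on angiotensin II, was lower by a log2 fold change of -0.39 (adjusted p = 5.6e-04, limma). Ctsd, a lysosomal protease that can release angiotensin I and the gene of this list with the highest level, rose by 0.22 (adjusted p = 0.017, limma). Anpep, aminopeptidase N, was lower, with -0.40 (adjusted p = 0.028, limma), while the neprilysin gene Mme, at 3401 ± 686 normalized counts with vehicle and 2599 ± 654 with aldosterone (SD, n = 4), gave -0.40 (adjusted p = 0.13, limma). Against spironolactone Agtrap, Ctsd and Prcp also passed, each in the same direction. Anpep did not pass there (log2 fold change -0.12, adjusted p = 0.63, limma), with means of 385 with aldosterone, 416 with spironolactone and 508 with vehicle. Mas1, a receptor gene for angiotensin fragments, had means of 8.44 with vehicle and 13.9 with aldosterone (log2 fold change 0.66, adjusted p = 0.43, limma).

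Aminopeptidases of the same family as Enpep and Lnpep were also listed, 9 in all, of which 2 were higher, 2 lower and 5 did not pass, with a median of 0.02. The shares of all genes beside these counts are those given for the list before. Lvrn, another membrane member of the family, was higher by 2.33 (adjusted p = 3.6e-04, limma) with 25 to 39 reads in each aldosterone library and 4 to 7 in each vehicle library. Npepps was higher by 0.17 (adjusted p = 0.041, limma) and Aopep lower, with -0.20 (adjusted p = 0.042, limma), beside Anpep above. Against spironolactone 2 of the 9 were higher (Lvrn and Npepps) and 0 lower. Aopep gave -0.18 there (adjusted p = 0.064, limma). Npepps also had the highest level of this list per kilobase, at 377.

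Of 15 genes of the vacuolar ATPase, the pump that Atp6ap2 accompanies, 5 were higher with aldosterone and 0 lower, with a median of 0.17. These 5 were Atp6v0e (0.33), Atp6v1b2 (0.29), Atp6v1d (0.26), Atp6v1e1 (0.34) and Atp6v1a (0.19, each as log2 fold change), and the gene of the list with the highest level, Atp6ap1, gave -0.02 (adjusted p = 0.91, limma). Beside this count, 5.68% of all 27319 genes tested were higher and 4.74% lower. Among 15245 genes with a mean of 10 or more, 1620 were higher and 1413 lower. Against spironolactone 3 of the 15 were higher (Atp6v0e, Atp6v1b2 and Atp6v1a) and 0 lower, with a median of 0.11. Of 6 kinin genes, whose peptides Ace also cuts, 0 passed against vehicle in limma, and the bradykinin receptor gene Bdkrb2 had means of 30.2 with vehicle and 21.1 with aldosterone. Against spironolactone 1 of 5 tested was higher, the kininogen gene Kng2, by 1.67. Of 6 genes of aldosterone synthesis, 4 were in none of the tables, among them the aldosterone synthase gene Cyp11b2, and Star, at 58.3 ± 14.1 with vehicle and 49.4 ± 13.1 with aldosterone (SD, n = 4), and Cyp11b1, with at most 3 reads in every library, did not pass.

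**Figure D5:**
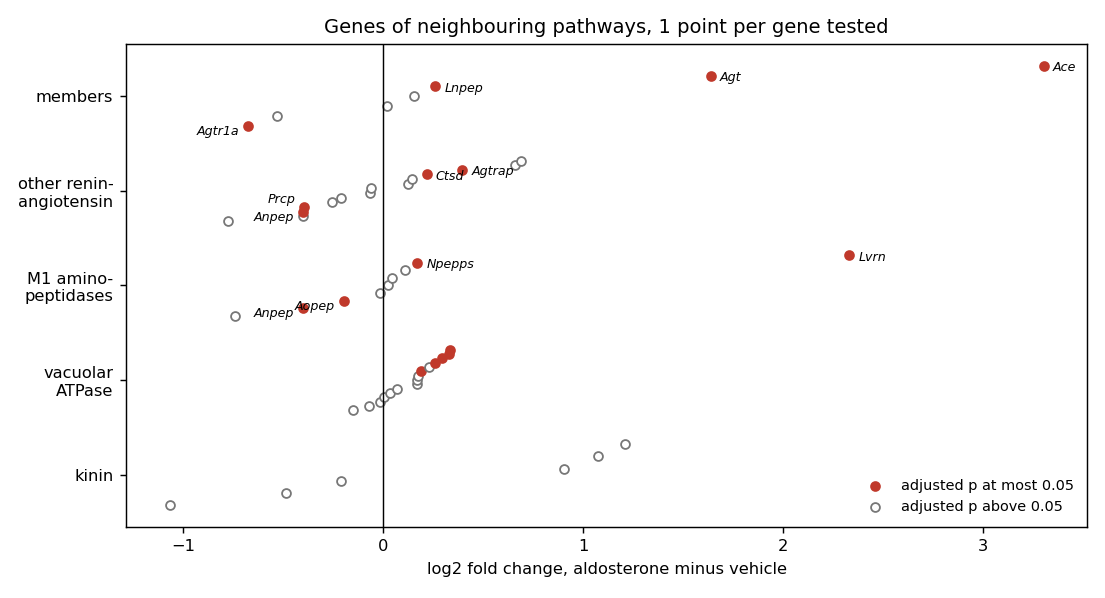
Log2 fold change with aldosterone against vehicle of each gene tested in the members and 4 neighbouring lists, 1 point per gene, filled where it passed the test (adjusted p of 0.05 or less, limma). The 5 filled points of the vacuolar ATPase all lie right of 0, and the kinin genes hold none.

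For each member called against vehicle, the genes with the most similar pattern were those with the highest Pearson correlation of log2(normalized count + 1) over the 12 libraries, out of 15275 genes whose mean was 10 or more. The points share treatment, sample number and libraries, so these values are descriptions. Nearest to Ace were Grina (0.996), Prune2 (0.994) and the retinaldehyde dehydrogenase gene Aldh1a1 (0.994), and nearest to Agt were Crebrf (0.989), the ceruloplasmin gene Cp (0.987) and the ferritin receptor gene Scara5 (0.983). Nearest to Agtr1a were the water channel gene Aqp1 (0.986), the ligand gene Wnt5a (0.984) and the semaphorin gene Sema3c (0.980), and nearest to Lnpep were Nfkbiz (0.970), Abhd18 (0.960) and Tlk1 (0.951). With rank correlation 2 of the 3 genes nearest to Agt stayed among its nearest 3, and 0 of 3 did for Ace, Agtr1a and Lnpep.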

How the data were processed

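Poly(A) RNA of 12 plates was sequenced, and the authors aligned reads with HISAT2 (2.0.5) and counted them per gene with featureCounts (1.5.0-p3) on mm39, per the submitters' processing notes; the paper's methods name another build, but the deposited coordinates are those of mm39. Whether counting used the strand is not given in the sources used here. The authors deposited 1 table per pair of treatments, whose signal values are gene counts scaled by library size factors. The gene lengths in the same tables were used as deposited. The authors' own means, fold changes and p-values from DESeq2 in these tables were not used.

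Whole reads were regained from the value of a single read in each column used for this (100% of values whole within 0.1 read), from both tables for 10 libraries and from 1 for 2 libraries. Between the tables of the 10 libraries 0 genes differed. The column of the other 2 libraries in their second table was not used for this, so they had no such check. A gene absent from a table was taken as without reads and had at most 1 read per library elsewhere. Values printed per library are counts normalized over all 12 libraries by DESeq2's median of ratios, and per kilobase by the deposited gene length.

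Each table was fitted whole with limma (3.58.1, R 4.3.3) on log2(normalized count + 1) with a trend, treatment as the only factor and Benjamini-Hochberg adjustment over all genes. Fold changes on this scale understate those of low genes. Exact permutation tests on log2 values were two-sided. The 7 members and the lists were chosen with earlier results of these data known. Another gene of the system is not reported here and is not in the counts of the lists. Genes named outside the members are those of each list past an adjusted p of 0.05 (at most 5), the highest of each list, the treatment check and the 3 nearest genes; others (Mme, Agtr1b, Mas1, Bdkrb2, Kng2, Ren1, Ren2, Ctsg, Cyp11b2, Star, Cyp11b1 and the cell type markers) were chosen after their values were seen. Alternatives were DESeq2 (1.42.0), edgeR (4.0.16) and limma-voom on recovered reads, TMM scaling with a prior count of 2, edgeR with DESeq2's size factors, a pseudocount of 0.5, a minimum mean of 10, replicate blocks, correlated plates, 1 fit of all libraries, single sample numbers and leaving out each library. The limma fit was tested on simulated data. The simulated libraries were drawn independently, without differences between sample numbers. They cannot show how the fit does on plates that share a mouse.

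The sample numbers pair the libraries across treatments: deviations from group means over 15276 genes correlated in all 24 pairs of the same sample number from different treatments, from 0.134 to 0.283. For the biological replicate number the range was -0.302 to 0.283. Within each treatment no library was a copy of another, with a chi-square per degree of freedom of at least 3.54 between libraries of a group. Pairs from different treatments were not checked in this way. RefSeq promoter sequences on GRCm38.p6 were used for letters only, and the genome provided, of another build, was not used.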

Additional observations from a re-analysis of the deposited data

Results flagged for a closer look

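Among the 21 sets of 4 libraries (7 genes, 3 treatments), 1 held a library far from the others by Dixon's test. Ace in vehicle had 84.8 normalized counts in sample number 2, biological replicate 2, where the other vehicle libraries had 68.1 to 70.4, and the gap was 0.864 of the range. Chance gives such a gap in about 1 in 20 sets. Without this library the log2 fold change of Ace with aldosterone was 3.37.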

How the results depend on the processing

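The calls of Ace, Agt, Lnpep and Agtr1a in both comparisons with aldosterone kept their direction and side of the threshold under each of 22 alternatives, with log2 fold changes against vehicle of 3.16 to 3.44, 1.40 to 1.80, 0.24 to 0.29 and -0.72 to -0.64. A replicate block on the sample number or on both numbers brought the lower members against vehicle from 1 to 2, since Enpep then passed with an unchanged -0.53 (adjusted p = 0.041 and 0.035, limma), and it changed no other call but that of Agtr2 against spironolactone. Atp6ap2 against vehicle turned to -0.011 in sample number 1 alone. Leaving out a library gave -0.10 to 0.46 for Agtr2 and -0.020 to 0.060 for Atp6ap2 against vehicle, 0.13 to 0.69 for Agtr2 and -0.078 to 0.00038 for Atp6ap2 against spironolactone, and -0.022 to 0.25 for Ace and -0.31 to 0.11 for Enpep in spironolactone against vehicle; none of these passed, and the cause was not tested. For sample number 2 against 1, the higher members numbered 2 to 4 when a library was left out, 2 without spironolactone replicate 1_2 or vehicle replicate 2_2, and the cause was not tested. Over all genes, calls against vehicle fell from 1294 to 850 lower with correlated plates and rose with a block (2371 and 2339 higher, 2192 and 2150 lower); against spironolactone the block gave 2095 and 2295 higher and 1879 and 2094 lower. DESeq2 gave no adjusted p for Ace, Agt and Enpep in spironolactone against vehicle. Genes without a read in the libraries kept were left out of fits on fewer libraries. With 2 mice, the spread between animals rests on few animals, and Enpep, Agt and Ace had 39 to 115 reads in vehicle or spironolactone libraries.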
